A study of Mus musculus with 5 samples.

Results

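The occupancy of RNA polymerase II (Pol II) is described here at 4 genes of distal mouse chromosome 4, Ubr4, A430005L14Rik, Dffb and Mmp23. It was mapped by CUT&Tag, in which a transposase tethered to antibody-bound chromatin inserts sequencing adapters nearby. The 4 genes were selected on these data: they are the genes beyond 138 Mb of chromosome 4 whose summed Pol II count was lower in KO at an adjusted p-value below 0.05 in DESeq2's Wald test. They are 4 of 12927 genes with a peak and hold 21 of 56615 peaks. Their own contrast between genotypes is therefore a description with no test.

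The Treg (regulatory T) cells were sorted from spleens of 8-week-old mice that had received IL-2c, 1 μg of IL-2 complexed with 5 μg of anti-IL-2 antibody, and that were analysed 48 h after the injections. Both genotypes carried Cre and YFP under the Foxp3 locus, so that recombination was directed to Treg cells. Ctrl mice (Foxp3 Cre-YFP Setd2 f/+) had 1 floxed Setd2 allele and KO mice (Foxp3 Cre-YFP Setd2 f/f) had both floxed. There were 2 libraries per genotype, each of 80000 nuclei, and the labels give 2 mice per genotype. The labels and methods do not make clear whether each library had its own mice, so p-values measure only the spread between these libraries, which may be technical. An IgG library of the series was not analysed here.

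Setd2 places trimethylation on lysine 36 of histone H3 in the bodies of transcribed genes and travels with elongating Pol II. Pol II collects at promoters, where it starts and pauses, and is spread more thinly over gene bodies while it transcribes. In bulk CUT&Tag, fewer cells with Pol II at a gene and less Pol II in each cell cannot be told apart. Ubr4 encodes a very large ubiquitin ligase that recognises N-degrons, the destabilising amino-terminal residues of proteins. Dffb encodes the caspase-activated DNase that cuts chromosomal DNA during apoptosis. Mmp23 encodes a membrane-anchored matrix metalloproteinase with a domain related to potassium channel toxins, and A430005L14Rik is a protein-coding gene known by its clone name.

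Total counts in peaks were between 4489646 and 13351007 per library, and the largest was 2.97 times the smallest. KO 2 was the shallowest library and KO 1 the deepest. All 6 Treg markers examined and all 5 general T cell markers held peaks, and Foxp3 had normalised read counts of 1885 and 1651 in Ctrl against 1861 and 1646 in KO. No CD8 T cell or NK cell marker had a peak, and of the B cell, myeloid and erythroid lists only Cd79a, Cd14 and Klf1 did. Setd2 itself had 512.4 and 517.9 normalised reads in Ctrl against 455.2 and 569.5 in KO, and Pol II over the locus does not check the deletion of floxed exons. Counts are given after division by DESeq2 size factors, which were estimated separately for genes and for peaks, so that a peak's value can differ slightly from that of a gene with that peak alone.

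The upstream sequences of Ubr4 and A430005L14Rik are shown because a Pol II peak covers the start of Ubr4 and flanks that of A430005L14Rik. Both are the 250 bases before the RefSeq transcription start on the plus strand of GRCm38.p6, the assembly that mm10 denotes, at chr4:139380409-139380658 for Ubr4 and chr4:153956987-153957236 for A430005L14Rik. Capitals mark matches, on either strand, to the motifs searched, which were the TATA box (TATAAA), the CCAAT box (CCAAT itself), the GC box core (GGGCGG), an ETS site core (CCGGAAG), the cAMP response element (TGACGTCA) and the NRF1 motif.
Ubr4: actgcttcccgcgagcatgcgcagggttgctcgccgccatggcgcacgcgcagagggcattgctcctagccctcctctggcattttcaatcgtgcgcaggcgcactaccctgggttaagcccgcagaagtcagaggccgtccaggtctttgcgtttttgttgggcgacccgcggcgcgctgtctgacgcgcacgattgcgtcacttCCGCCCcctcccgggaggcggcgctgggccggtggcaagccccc
A430005L14Rik: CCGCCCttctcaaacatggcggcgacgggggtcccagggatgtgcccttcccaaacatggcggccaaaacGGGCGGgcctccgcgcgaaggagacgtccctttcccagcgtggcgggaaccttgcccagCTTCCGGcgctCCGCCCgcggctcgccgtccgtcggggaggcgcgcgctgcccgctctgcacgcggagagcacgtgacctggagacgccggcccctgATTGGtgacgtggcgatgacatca

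In the 300 bases from 250 before to 50 after the start, the GC box core matched 1 time at Ubr4, 3 times at A430005L14Rik, 2 times at Dffb and 0 times at Mmp23, and 35.7% of 32851 RefSeq promoters held at least 1 match. The CCAAT box, found in 37.4% of promoters, and the ETS site core, found in 8.86%, each had 1 match, among the 4 genes at A430005L14Rik alone. The TATA box, the cAMP response element and the NRF1 motif, held by 13.6%, 1.79% and 0.971% of promoters, matched in none of the 4 windows. The windows held 37 CpG dinucleotides at Ubr4, 43 at A430005L14Rik, 32 at Dffb and 19 at Mmp23. Over all promoters the median was 7, and the 25th and 75th percentiles were 3 and 20, so Mmp23 lay between these. That reference holds promoters with and without a Pol II peak. A match describes the letters of the window and shows no binding.

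Pol II was lower in both KO libraries than in both Ctrl libraries at each of the 4 genes. Ubr4 (ENSMUSG00000066036.14, chr4:139352609-139489588, plus strand) had 1234 and 1435 normalised reads over 14 peaks in Ctrl against 762.2 and 808.3 in KO. A430005L14Rik (ENSMUSG00000047613.10, chr4:153957237-153961925, plus strand) had 200.0 and 238.1 over 3 peaks in Ctrl against 77.93 and 100.4 in KO. The KO mean was 58.8% of the Ctrl mean at Ubr4 and 40.7% at A430005L14Rik.

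Dffb (ENSMUSG00000029027.9, chr4:153964449-153975126, minus strand) had 301.8 and 474.7 normalised reads over 3 peaks in Ctrl against 182.4 and 164.4 in KO. Relative to their mean, the Ctrl libraries stood farther apart at this gene than at the other 3, and the lower of them was still above both KO libraries. Mmp23 (ENSMUSG00000029061.2, chr4:155650655-155653384, minus strand) had 972.8 and 1178 in its only peak in Ctrl against 633.5 and 682.0 in KO. The KO mean was 44.7% of the Ctrl mean at Dffb and 61.2% at Mmp23.

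The log2 fold changes of KO over Ctrl were -0.77 ± 0.15 (SE) at Ubr4, -1.32 ± 0.29 at A430005L14Rik, -1.15 ± 0.26 at Dffb and -0.71 ± 0.16 at Mmp23 (2 libraries per genotype). The larger changes were at A430005L14Rik and Dffb, which are neighbours. Taken by library number, KO 1 over Ctrl 1 and KO 2 over Ctrl 2 gave log2 ratios of -0.70 and -0.83 at Ubr4, -1.36 and -1.25 at A430005L14Rik, -0.73 and -1.53 at Dffb, and -0.62 and -0.79 at Mmp23. Dffb thus had the least even change, with the larger ratio between the shallower libraries.

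**Figure D1:**
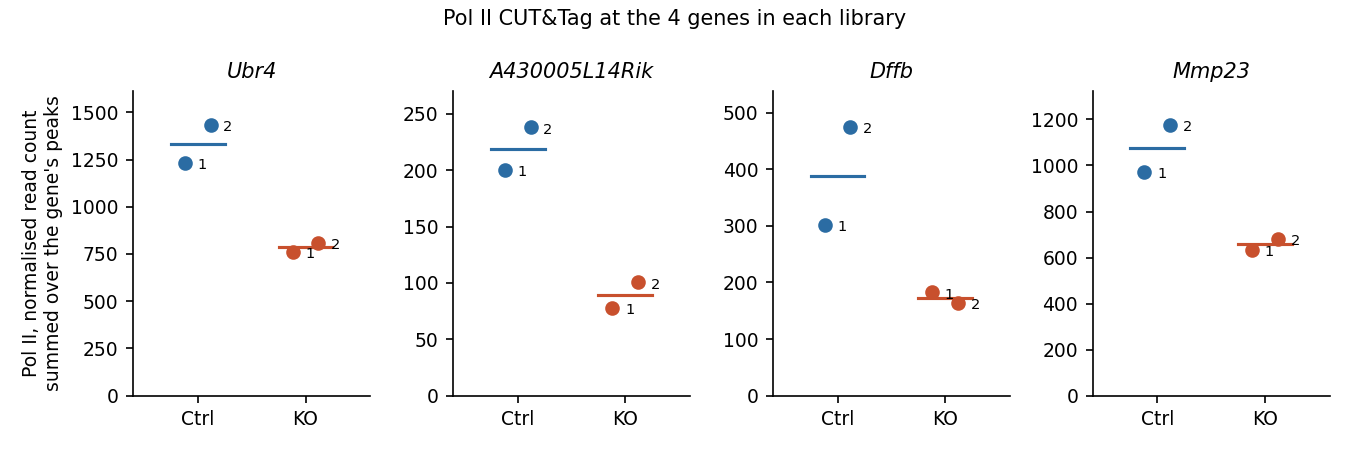
Each panel plots the normalised Pol II read count summed over 1 gene's peaks (y axis, from 0) in each library, with points numbered by library and lines at the group means. Both KO libraries lie below both Ctrl libraries in every panel, and relative to their mean the Ctrl points are farthest apart at Dffb, at 301.8 and 474.7.

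Of all genes, 0.0851% were lower in KO at an adjusted p-value below 0.05 in DESeq2, 1.44% were lower and 1.45% higher at an unadjusted p-value below 0.05, and 16.9% had both KO libraries below both Ctrl libraries. Nothing is read from the 4 genes against these shares, because the contrast chose them. Just inside the threshold lay Mmp23, with an adjusted p-value of 0.0173 in DESeq2, and just outside it on the distal segment lay Cdk11b, at 0.0949 with a log2 fold change of -0.52 ± 0.13. The choice depends on the tool: edgeR's quasi-likelihood test called 0 genes of the whole table, with 631 at an unadjusted p-value below 0.05, all 4 genes among them.

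At the level of single peaks, lower values were seen along each gene. All 21 peaks of the 4 genes had a log2 fold change below 0, with a median of -0.96 and a range from -1.70 to -0.11. In 18 of the 21, both KO libraries were below both Ctrl libraries, as in 16.1% of all peaks, and 11 had an unadjusted p-value below 0.05 in DESeq2, as did 0.664% of all peaks in the same direction. These peaks make up the sums that chose the genes, so that the shares are again a description. DESeq2 called 0 peaks of the whole table at an adjusted p-value below 0.05, with 864 at an unadjusted one, and edgeR called 27.

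Ubr4 held 14 peaks, the first of which (chr4:139351920-139353004) lies at the divergent promoters of Mrto4 and Emc1, with its midpoint well before the start from which the shown sequence is counted. The annotated Ubr4 gene record begins within this peak, whose midpoint falls in the 3 kb upstream of that record, which is why it was assigned to Ubr4. Its normalised counts were 268.8 and 228.7 in Ctrl against 156.3 and 115.8 in KO, and its log2 fold change was -0.85 ± 0.29. The peak over the Ubr4 start itself (chr4:139380166-139381197) had 235.0 and 260.4 in Ctrl against 154.5 and 153.3 in KO, and its change of -0.68 ± 0.27 was within 1 SE of that at the shared promoter.

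Inside the Ubr4 gene, the 8 peaks from the start to 20 kb downstream summed to 820.8 and 906.6 normalised reads in Ctrl against 465.2 and 546.7 in KO, leaving 58.6% of the Ctrl mean. The 5 peaks farther along, all but the last centred in introns, summed to 173.9 and 285.2 in Ctrl against 145.5 and 132.8 in KO, leaving 60.6%. These proportions of the means were close, but they carry no error. Over the 5 farther peaks the Ctrl libraries stood far apart, at 173.9 and 285.2, so the proportion retained there is imprecise. Whether it differed between the start and the deep body of this long gene was not tested. The broadest peak of the body (chr4:139394848-139397277, intron) had 249.4 in both Ctrl libraries against 129.5 and 172.0 in KO. The smallest change, -0.11 ± 0.49, was at an intronic peak (chr4:139451255-139451811) with 37.38 and 63.38 in Ctrl against 47.53 and 44.28 in KO, where the groups overlapped.

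The 3 peaks of A430005L14Rik all lie within 3 kb of its start. The peak just upstream (chr4:153956946-153957185), which covers most of the shown sequence, had 81.22 and 66.13 normalised reads in Ctrl against 32.08 and 28.95 in KO. The next (chr4:153957523-153957951, intron) had 69.00 and 86.80 in Ctrl against 22.58 and 39.17 in KO, and the last (chr4:153959584-153960249, intron) had 54.63 and 82.67 in Ctrl against 23.76 and 30.66 in KO. The groups did not overlap in any of them, and the log2 fold changes of -1.27, -1.39 and -1.35, each with an SE of 0.46 to 0.49, differed by less than their errors. These are low peaks: KO 2 had 17, 23 and 18 raw reads in them.

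The peak at the Dffb promoter (chr4:153974019-153975500) is assigned to another gene too. It had 214.9 and 299.0 normalised reads in Ctrl against 117.6 and 134.5 in KO. Its log2 fold change was -1.03 ± 0.29, and since CUT&Tag reads carry no strand it cannot be credited to Dffb alone. The 2 peaks of Dffb alone are intronic. The larger of them (chr4:153965300-153966199) had the lowest fold change of all 21, at -1.70 ± 0.54, with 60.38 and 106.1 in Ctrl against 35.65 and 11.92 in KO, the last of these from 7 raw reads. The other (chr4:153966780-153967123) had 33.78 and 64.76 in Ctrl against 30.30 and 15.33 in KO. Without the shared peak, Dffb was at -1.43 with an adjusted p-value of 0.763 in DESeq2, so that it was past the threshold only with the shared peak counted.

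The single peak of Mmp23 (chr4:155650808-155655556) is 4749 bp long and covers nearly the whole gene and the sequence before its start. It also runs into the end of the neighbouring gene Mib2 (chr4:155654677-155669198), which is on the minus strand too. The peak was assigned to Mmp23 by its midpoint. Since it covers part of both genes, it cannot be credited to Mmp23 alone. Its log2 fold change in the peak table was -0.72 ± 0.20. Levels can be set side by side only per length of peak: in Ctrl, Mmp23 had 226.4 normalised reads per kb of peak, A430005L14Rik 164.1, Dffb 142.4 and Ubr4 127.5, against a median of 144.8 over all genes with a peak. The 4 genes therefore lay on both sides of the middle of the table in Ctrl.

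**Figure D2:**
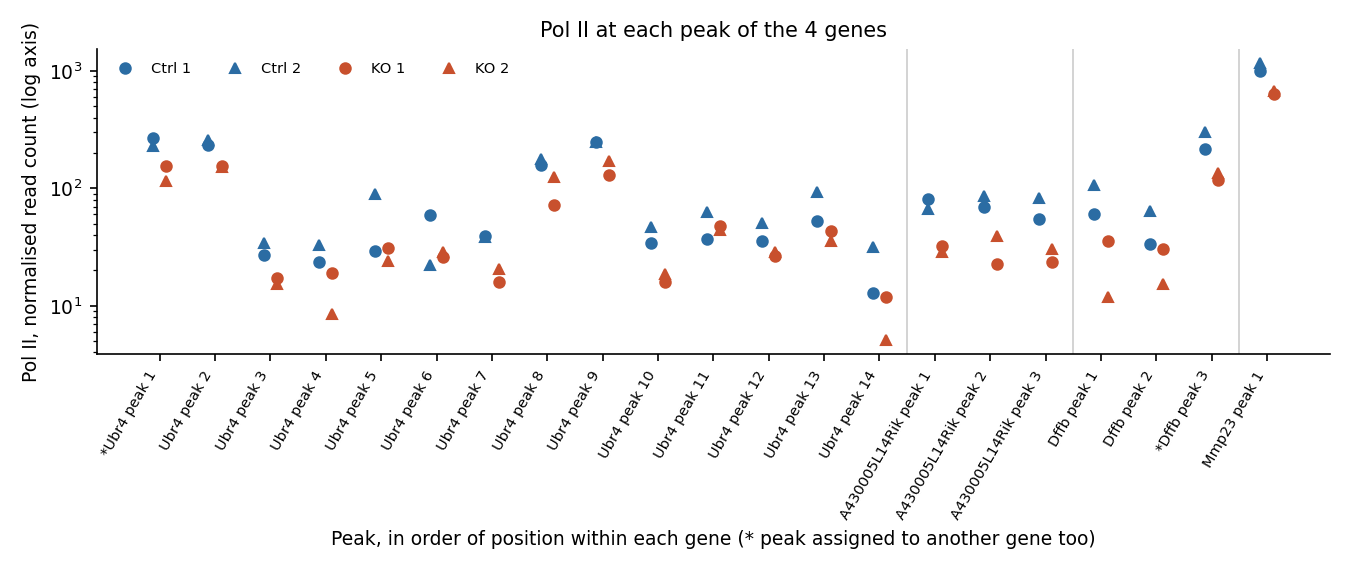
Each column is 1 of the 21 peaks, in genomic order within its gene (x axis; a star marks a peak assigned to another gene too), and the y axis is the normalised Pol II read count on a log axis in Ctrl 1, Ctrl 2, KO 1 and KO 2. KO points lie below both Ctrl points in 18 peaks, and the 3 with overlap are in the body of Ubr4.

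The question of whether the lower Pol II was local was addressed with the other 859 peaks beyond 138 Mb. Their median log2 fold change was -0.05, and 56.9% of them were below 0, against a median of -0.02 and 52.2% over the 2555 peaks of the rest of chromosome 4 and -0.01 and 51.1% over all peaks. At an unadjusted p-value below 0.05 in DESeq2, 12 of the 859 (1.40%) were lower in KO and 4 (0.466%) higher, against 0.664% lower and 0.862% higher over all peaks. That split depended on the fit, with 10 lower and 7 higher under total-count scaling and 24 lower and 22 higher by edgeR. The split over all peaks moved as well. Of all peaks at that p-value, 327 of 951 were lower under total-count scaling and 964 of 2057 by edgeR. Both KO libraries were below both Ctrl libraries in 20.4% of them and above in 13.3%, against 16.1% and 16.2% of all peaks. The median of the distal peaks was small beside those of the 4 genes, but the 4 genes were chosen for low values. Without Ctrl 2 the median of the distal peaks was 0.01, as was that of all peaks.

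**Figure D3:**
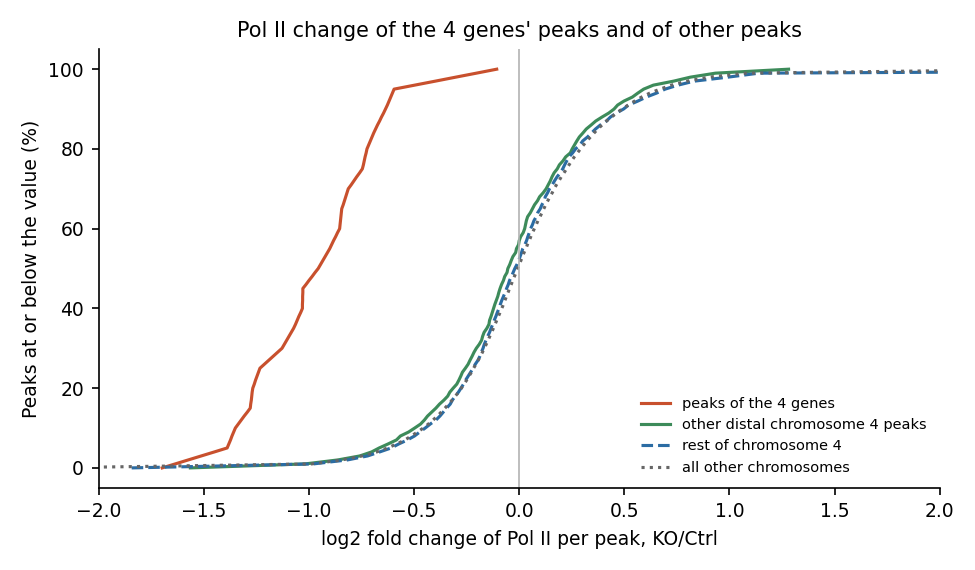
The curves give the percentage of peaks (y axis) at or below each log2 fold change of KO over Ctrl (x axis) for the 21 peaks of the 4 genes, the 859 other distal peaks, the rest of chromosome 4 and all other chromosomes. The curve of the 4 genes, chosen for low values, lies wholly below 0 with a median of -0.96, while the medians of the other 3 sets are -0.05, -0.02 and -0.01.

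Within the distal segment, the lower values lay close to the 4 genes. The 38 other peaks within 50 kb had a median log2 fold change of -0.38, 94.7% were below 0, 7 (18.4%) were lower at an unadjusted p-value below 0.05 in DESeq2, and none was higher. Mmp23 weighed most in this class: 28 of the 38 were nearest to it, including all 7 at that p-value, 6 of them assigned to Cdk11b. By nearest gene, the medians were -0.37 at Mmp23, -0.40 for 8 peaks at Ubr4 and -0.64 for 2 at Dffb. At 50 to 250 kb the median of 137 peaks was -0.05, at 250 kb to 1 Mb that of 157 peaks was -0.03, and beyond 1 Mb that of 527 peaks was -0.04. In these 3 classes together, 5 of 821 peaks were lower and 4 higher at that p-value, all 5 of the lower ones beyond 1 Mb. Of the 13 windows of 1 Mb with at least 20 other peaks, 8 had a median below 0 and 5 above, from -0.14 in the window starting at 155 Mb, which holds Mmp23, to 0.14 in the one starting at 154 Mb.

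**Figure D4:**
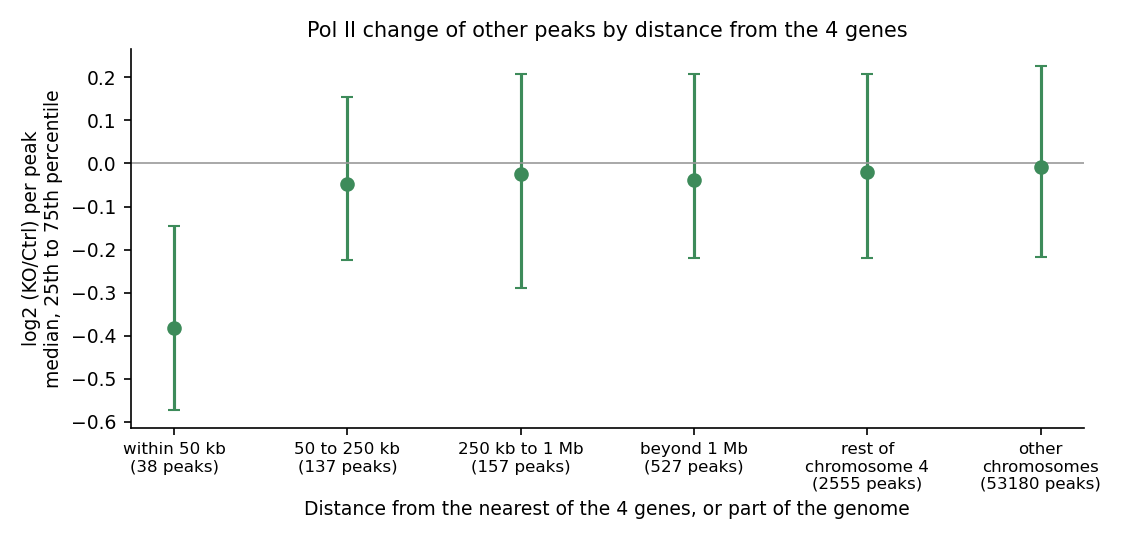
Points are the median log2 fold change of Pol II per peak, KO over Ctrl (y axis), of peaks not assigned to the 4 genes, by distance from the nearest of these genes or part of the genome (x axis), with lines from the 25th to the 75th percentile. The 38 peaks within 50 kb have a median of -0.38 and a 75th percentile below 0, and the other classes have medians between -0.05 and -0.01.

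The extent of the lower values differed in shape between the loci. Around Mmp23, all 17 peaks within 50 kb on the side of lower coordinates were below 0, with a median of -0.47 and 7 at an unadjusted p-value below 0.05 in DESeq2, whereas the 11 on the other side had a median of -0.14 and none at that p-value. The difference between the sides was not tested. The stretch of lower coordinates holds Cdk11b, a cyclin-dependent kinase gene, Gm10563, which overlaps it on the opposite strand, and the transporter gene Slc35e2. Cdk11b, whose end lies 716 bp from Mmp23, had 2620 and 3018 normalised reads in Ctrl against 1885 and 2049 in KO, Gm10563 had a log2 fold change of -0.49 ± 0.13, mostly from the same peaks, and Slc35e2 one of -0.38 ± 0.14. Beyond them Nadk, which encodes NAD kinase, was at -0.09 ± 0.15, and on the other side of Mmp23 the ubiquitin ligase gene Mib2, 1292 bp away, was at -0.17 ± 0.16.

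Around Ubr4, the 7 peaks within 50 kb on the side of lower coordinates had a median of -0.51, and the 1 on the other side was at -0.02. Of these 7, 0 had an unadjusted p-value below 0.05 in DESeq2, against 7 of the 17 on that side of Mmp23. The peaks beside Ubr4 were lower in count, with a median of 46.0 normalised reads against 125 for those 17. The 2 sets therefore differ in precision, and whether the loci differed was not tested. Mrto4, which acts in ribosome assembly, had 306.7 and 295.1 normalised reads in Ctrl against 186.0 and 162.7 in KO, of which the peak shared with Ubr4 made up the greater part. Emc1, a subunit of the endoplasmic reticulum membrane complex, had that peak alone and was at -0.84 ± 0.27. The next gene on that side, Akr7a5, was at -0.05 ± 0.30, and Pqlc2, Capzb and, on the other side of Ubr4, Iffo2 were at -0.02 ± 0.17, 0.04 ± 0.12 and -0.08 ± 0.12. The genes next to this group were thus near 0 on both sides.

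The neighbourhood of A430005L14Rik and Dffb was sparse, with 2 other peaks within 50 kb, at -0.70 and -0.58. Lrrc47 held the second of these and was at -0.56 ± 0.54, and Trp73, a gene of the p53 family, was at -0.32 ± 0.33, neither of them at an unadjusted p-value below 0.05 in DESeq2. Wrap73, the next, was at 0.23 ± 0.16. On the side of lower coordinates the nearest protein-coding gene with a peak, Nphp4, lay 1394053 bp away and was at -0.06 ± 0.19.

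**Figure D5:**
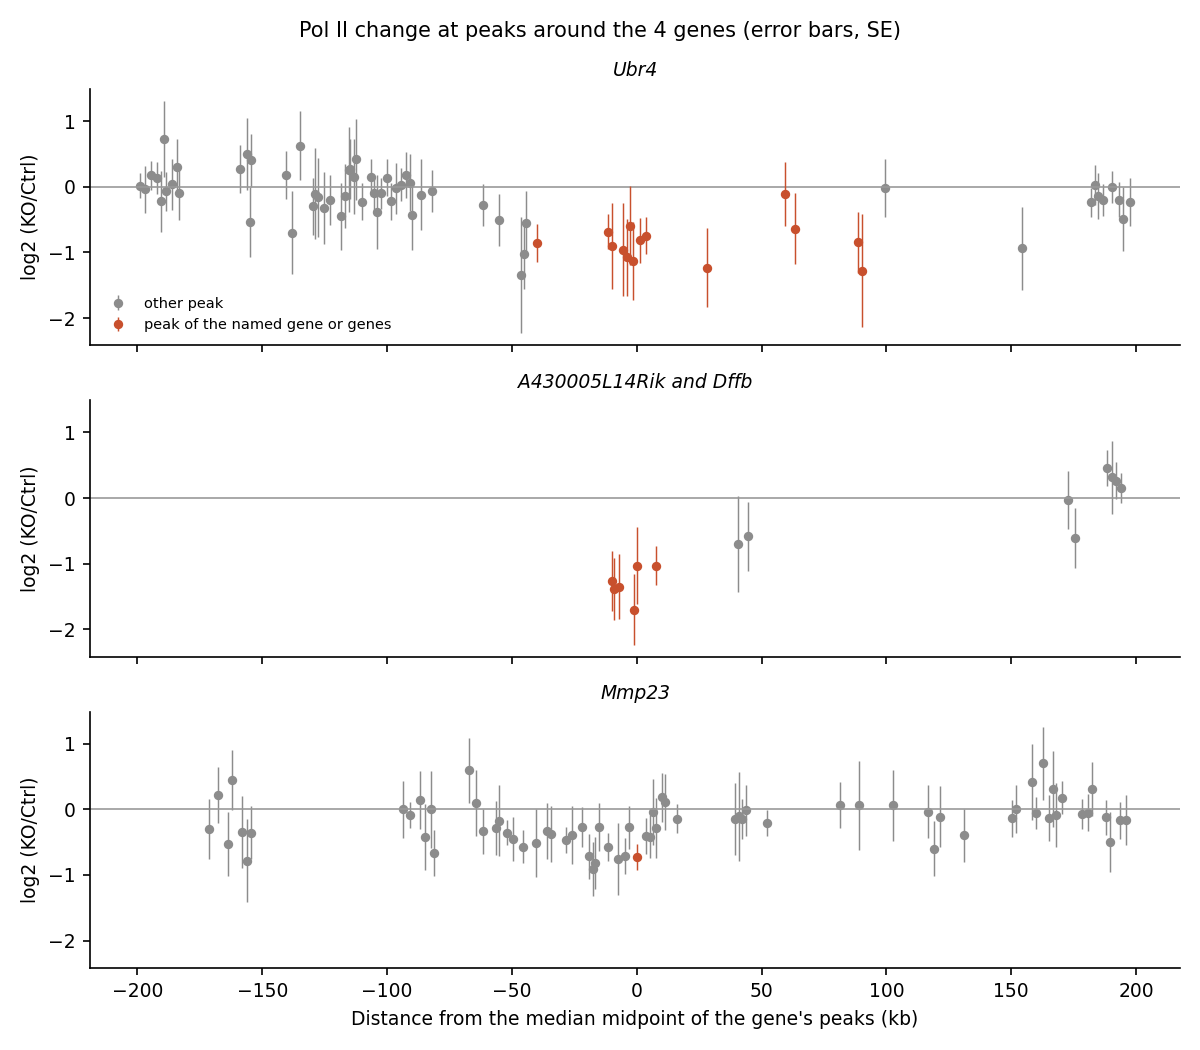
Points are the log2 fold change of Pol II, KO over Ctrl (y axis, lines SE), of each peak within 200 kb of 3 loci, against its distance in kb from the median midpoint of the peaks of Ubr4, of Dffb or of Mmp23 (x axis, increasing with genome coordinate). Peaks of the 4 genes are coloured, and the grey peaks on the lower-coordinate side of Mmp23 extend the values below 0 for about 50 kb.

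Over whole genes, the 169 other genes with a distal peak had a median log2 fold change of -0.06, against 0.00 over all genes. Of the 169, 62.1% were below 0, against 50.9% of all genes. At an unadjusted p-value below 0.05 in DESeq2, 8 of them were lower and 0 higher in KO, against 1.44% lower and 1.45% higher of all genes. Without the 3 that share a peak with Ubr4 or Dffb, 5 of 166 were lower, including Cdk11b, Gm10563 and Slc35e2 from the stretch beside Mmp23. Among the 5 of the 169 with the smallest p-values were Cdk11b, Gm10563, Mrto4 and Emc1, which share a peak with 1 of the 4 genes or lie beside it. Of the 5 higher genes with the smallest p-values, the EGF receptor inhibitor gene Errfi1 (0.38 ± 0.23), Padi2 (0.22 ± 0.14), Mul1 (0.30 ± 0.20), Wrap73 and Ints11 (0.29 ± 0.22) had unadjusted p-values between 0.101 and 0.195.

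Genes of the same pathways were taken from 3 lists. Over all genes, 1.44% were lower and 1.45% higher at an unadjusted p-value below 0.05 in DESeq2. Lists this short would hold few such genes in any case, so their counts are given as a description only. Of 15 other genes of apoptotic DNA fragmentation with a peak, from a list of 17, 0 were lower and 0 higher at an unadjusted p-value below 0.05 in DESeq2, with a median log2 fold change of -0.05. Dffa, whose product holds the DNase inactive, had 52.64 and 50.12 normalised reads in Ctrl against 41.33 and 32.89 in KO, at -0.45 ± 0.49. Dffa lies on distal chromosome 4 as well, and its low count gave it a wide error.

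Of the 14 other genes of N-degron ubiquitination, all with a peak, 0 were lower and 0 higher by the same test, with a median of -0.01. The related ligase genes Ubr1 and Ubr2 were at -0.20 ± 0.27 and -0.23 ± 0.14, and Kcmf1, whose product works with Ubr4, was at 0.34 ± 0.26. Of 10 other matrix protease and inhibitor genes with a peak, from a list of 21, 1 was lower, Mmp17, with 179.7 and 128.1 normalised reads in Ctrl against 94.47 and 88.27 in KO (-0.76 ± 0.32), and the median was 0.07. Kcna3, which encodes the potassium channel Kv1.3 that the Mmp23 domain can block, was at -0.04 ± 0.30.

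Likeness of pattern was measured as the Euclidean distance between log2 normalised counts centred over the 4 libraries, among 10426 genes with a mean of at least 100. Ubr4 and Mmp23 were within 0.07 of each other, each being among the 3 genes nearest to the other, with Zfp954 and Gm32200 completing both sets. Nearest to A430005L14Rik were Txnl4b and Dhx38, at 0.25 and 0.31, and among the 3 nearest to Dffb were Ttyh1 and Dusp14. With 4 libraries in 2 groups, this distance mostly ranks genes by their difference between genotypes.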

How the data were processed

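Per the labels and the methods of the study, the authors mapped reads to mm10 with Bowtie2, kept uniquely mapped reads, removed duplicates, called peaks with MACS2 against IgG, merged them and extracted raw counts per merged peak with bedtools; no versions were given. The deposited table holds these counts. Peaks were assigned with the GENCODE vM21 basic annotation of GRCm38 to each gene whose body or 3 kb upstream held the midpoint, protein-coding genes first. KO was compared with Ctrl by DESeq2 1.42.0 (R 4.3.3; Wald test, median-of-ratios size factors, two-sided, Benjamini-Hochberg adjustment) over all 56615 peaks and 12927 genes; edgeR 4.0.16 was an alternative. The fits were checked on simulated counts. Low counts in the libraries numbered 2 limit precision.

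The genes and lists were chosen with earlier results of these data known. Named genes were those sharing a peak with the 4 genes, the nearest protein-coding neighbours, the 5 other distal genes in each direction with the smallest p-values, list genes with an unadjusted p-value below 0.05, Dffa and Kcna3, and the 3 nearest in pattern. Further neighbours, Ubr1, Ubr2 and Kcmf1 were named after their values were seen, and some genes under the rule are not reported here. Alternatives were total-count scaling, a filter at a mean of 10 counts, a replicate block, unshared peaks, promoter peaks and leaving out libraries.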

Additional observations from a re-analysis of the deposited data

How the results depend on the processing

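The number of the 4 genes lower in KO at an adjusted p-value below 0.05 was 4 with DESeq2, 0 with edgeR (edgeR's adjusted p-values were between 0.129 and 0.271), 1 with promoter peaks only (A430005L14Rik), and 3 with peaks of 1 gene only. With the replicate number as a block it was 1, Ubr4, while DESeq2's filtering gave the other 3 genes no adjusted p-value; genes called in the whole table went from 13 to 114. The numbers pair libraries only by name (deviations of same-numbered libraries correlated at 0.262 over peaks, 2 pairs), and the cause was not tested. All 4 fold changes stayed within the spread between replicates under every alternative run. Leaving out 1 library at a time gave log2 fold changes, read as values with no test, from -0.87 to -0.65 at Ubr4, -1.49 to -1.12 at A430005L14Rik, -1.44 to -0.79 at Dffb and -0.84 to -0.57 at Mmp23, each nearest 0 without Ctrl 2 except A430005L14Rik, which was nearest without KO 1. The median of the other distal peaks ranged from -0.075 to 0.013 with 1 library left out. It was above 0 without Ctrl 2, where the median of all peaks was 0.012. With total-count scaling it was -0.02, where the median of all peaks was 0.02, and without peaks within 50 kb of the 4 genes it was -0.04. At the shallowest depth, single peaks rested on as few as 3 raw reads.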
